A study of Mus musculus with 6 samples.

Results

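A set of 6 genes around amphiregulin was followed in cultured group 2 innate lymphoid cells (ILC2s), lymphocytes without antigen receptors that release type 2 cytokines. They were taken by name from the 18122 genes of the count table: Areg and Hbegf, which encode growth factors, Adam10, Adam17 and Rhbdf2, which act in the release of such factors, and Errfi1, an inhibitor of the receptor they bind. All 6 were present, and all 6 passed the filter on low counts that left 13691 genes. The set was chosen by earlier results of these same libraries, in which Areg and Errfi1 stood higher in one genotype, so the differences of the 6 genes between genotypes are given as a description, with no test. The cells were sorted from mouse lung and cultured before RNA was extracted, and no stimulus is named in the sources used here. Wild-type mice (WT, genotype label BALB/C BYJ) gave 3 libraries. The other 3 came from ICOS KO mice (genotype label C.129S4-Icostm1Shr/J), which carry a targeted allele of the gene for the inducible co-stimulator receptor. Strain name and Icos status thus change together and cannot be told apart. No age is given. Whether each library had its own mouse or culture is not said, and p-values reflect only how these libraries spread, which may be technical.

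Amphiregulin and HB-EGF belong to the EGF family. Both are made as precursors that span the cell membrane, and a protease must cut them before the growth factor can leave the cell. ADAM17 is the protease best known for cutting amphiregulin, ADAM10 is its closest relative with partly different targets, and iRhom2, the product of Rhbdf2, carries ADAM17 through the secretory pathway in immune cells. The freed factor binds the EGF receptor on neighbouring cells and turns on the RAS and ERK kinases. MIG6, the product of Errfi1, binds that receptor's kinase and dampens it. In the lung, amphiregulin from ILC2s is known for its part in the repair of airway epithelium.

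The libraries held 13738062 to 18736474 estimated counts. Levels are given in CPM, counts scaled to a common library total with TMM factors, and log2 fold changes are ICOS KO against WT. A value after ± is the SD over the 3 libraries of a genotype, or the SE of a fold change where so marked. A gene was called where its edgeR adjusted p was below the threshold of 0.05, and the WT value is always given before the ICOS KO value. Icos stood at 434 to 502 CPM in WT and 140 to 170 CPM in ICOS KO. All 13 ILC2 markers were tested, and their summed level was 11085 to 12238 CPM in WT and 11289 to 12039 CPM in ICOS KO. The largest part of this sum was Il5, at 6460 ± 533 and 6049 ± 309 CPM (edgeR adjusted p = 0.504). Of these markers 2 rose, Klrg1 from 240 ± 19.4 to 557 ± 49.4 CPM (edgeR adjusted p = 5.9e-05) and Il1rl1, the IL-33 receptor gene, from 378 ± 8.72 to 514 ± 78.3 CPM (edgeR adjusted p = 0.0495). Rora, an ILC2 transcription factor, fell from 211 ± 7.75 to 152 ± 6 CPM (edgeR adjusted p = 0.0155). The summed level of 13 mast cell and basophil genes was 360 to 414 CPM in WT and 62.3 to 72.7 CPM in ICOS KO, 9 T cell genes stood at 262 to 319 and 388 to 499 CPM, and 6 B cell genes at 1519 to 2401 and 2645 to 2892 CPM. For 12 genes of macrophages, dendritic cells and neutrophils the ranges were 130 to 187 and 80.2 to 118 CPM, for 4 NK cell and ILC1 genes 3.61 to 5.45 and 0 to 0.517 CPM, and for 7 epithelial genes 104 to 207 and 75.8 to 213 CPM. The 2 stromal and endothelial genes in the table stood at 45.4 to 55.1 and 67.5 to 70.4 CPM, most of it Pecam1. Of tested genes, 7 of 10 fell and none rose on the mast cell and basophil list, 2 rose and 1 fell of 7 on the T cell list, and 2 rose of 6 on the B cell list. Both tested NK cell and ILC1 genes fell, 1 of 10 macrophage, dendritic and neutrophil genes fell, and 1 of 6 epithelial genes rose. Beside these counts, 1.29% of all tested genes were called higher and 2.01% lower. No marker in the table was at 1 count or less in every library. The mitochondrial share of counts was 0.263% to 0.422% in WT, 0.329% in ICOS KO replicate 1, 0.616% in replicate 2 and 0.492% in replicate 3. In bulk RNA, fewer cells of a type and less RNA per cell cannot be told apart. Transcript length also moved with genotype. The median log2 fold change was 0.25 over the 3388 tested genes with the shortest transcripts (66 to 1770 bases) and -0.12 over the 3387 with the longest, so the difference of each of the 6 members is also given with each library's trend over length and GC content removed.

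Areg, the amphiregulin gene, was the member with the largest difference. Its level was 86.4, 96.2 and 108 CPM in the WT libraries and 245, 274 and 252 CPM in the ICOS KO libraries. Every ICOS KO library lay above every WT library, and the lowest ICOS KO value was 2.28 times the highest WT value. The means were 96.7 ± 10.6 and 257 ± 14.8 CPM (SD, n = 3 each). The log2 fold change was 1.41 ± 0.11 (SE). This value stood at percentile 99.1 of all tested genes. Areg lies on chromosome 5 at 91139599 to 91148432 on the plus strand (GRCm38, the build mm10 names), with 6 exons and 1 transcript of 1215 bases in GENCODE M21, and no other annotated gene overlaps it. This is a short transcript, in the length class whose median was 0.25. With the length and GC trend removed the log2 fold change of Areg was 1.28. Mast cells and basophils can also make amphiregulin. In the ICOS KO libraries the summed markers of mast cells and basophils were lower, those of T cells and B cells were higher, and the mitochondrial share was above the WT range in replicates 2 and 3. The part of these in the level of Areg was not tested.

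Hbegf, which encodes heparin-binding EGF-like growth factor, went the other way at a low level. Its level was 11.5, 8.36 and 7.47 CPM in WT against 6.07, 5.41 and 6.01 CPM in ICOS KO, from 72 to 220 estimated counts per library. The ICOS KO libraries were close to each other and below every WT library, while WT replicate 1 lay apart above the other WT libraries. The log2 fold change was -0.65 ± 0.24 (SE), -0.44 without WT replicate 1 and -0.51 with the length and GC trend removed. Summed markers of mast cells and basophils, and of macrophages, dendritic cells and neutrophils, were lower in ICOS KO. Those of T cells and B cells were higher. The part of these in the level of Hbegf was not tested. Of the 6 members, 2 (Areg and Errfi1) thus had every ICOS KO library above every WT library and 1 (Hbegf) had every one below. Over all tested genes 11.9% had the first pattern and 12.5% the second, 24.4% together; nothing is read from this for the 6 genes, which were chosen with it known.

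Other EGF family ligands had few reads. Of 9 other ligand genes listed, 7 were in the table and only Egf, the ligand that names the family, passed the filter. Egf stood at 1.6 ± 0.3 CPM in WT and 0.722 ± 0.405 CPM in ICOS KO (edgeR adjusted p = 0.264). Ereg, which encodes epiregulin and neighbours Areg, had 0 to 6 estimated counts in a library, and Btc, which encodes betacellulin, had 0 to 19. Among receptors, Egfr, the receptor that amphiregulin binds, had 4 to 17 estimated counts per library and did not pass the filter. Erbb3, a family member that binds neuregulins, stood at 11.1 ± 1.09 and 13.5 ± 5.87 CPM (edgeR adjusted p = 0.577), with ICOS KO replicate 1 at 20.2 CPM apart from the others. None of the tested genes of these 2 lists was called by edgeR, DESeq2 or voom, and none had an unadjusted p under 0.05.

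**Figure D1:**
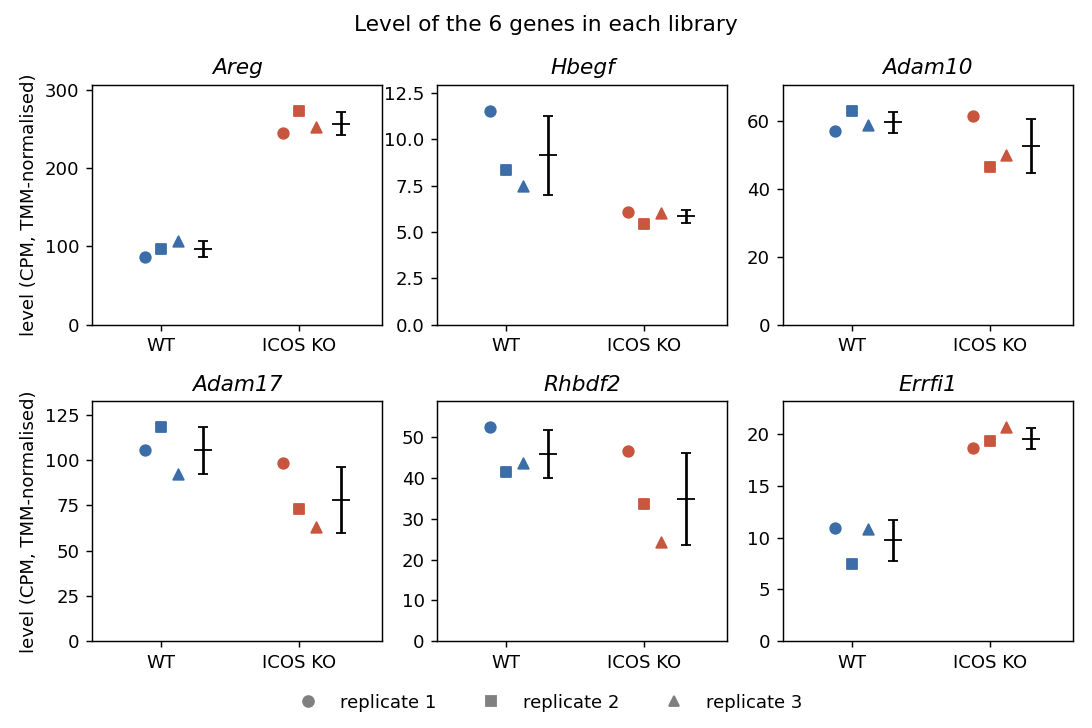
Level of each of the 6 genes in CPM (TMM-normalised, vertical axes from 0) in the WT and ICOS KO libraries. Points are libraries, with a shape per replicate number, and bars show the mean and SD. Areg and Errfi1 lie higher and Hbegf lower in every ICOS KO library, while Adam10, Adam17 and Rhbdf2 overlap between genotypes, with ICOS KO replicate 1 inside the WT range.

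The 3 genes of the release machinery did not separate the genotypes. For Adam17 the WT libraries gave 106, 118 and 92.2 CPM, and the ICOS KO libraries 98.4, 72.8 and 63.1 CPM. Replicate 1 of ICOS KO lay inside the WT range and the other ICOS KO libraries below it, with a log2 fold change of -0.43 ± 0.16 (SE). Adam17 lies on chromosome 12 at 21323509 to 21373632 on the minus strand. Its exons overlap Iah1 on the other strand (228 to 367 estimated counts per library), and with the strand setting not given in the sources used here, reads of the shared stretch cannot be told apart.

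Rhbdf2, the gene of iRhom2, showed the same order of libraries as Adam17 in ICOS KO. Its WT values were 52.4, 41.4 and 43.6 CPM and its ICOS KO values 46.6, 33.6 and 24.3 CPM, a log2 fold change of -0.39 ± 0.20 (SE). The gene lies on chromosome 11 at 116598165 to 116627019 on the minus strand. Its ICOS KO values had the widest relative spread of the 6 genes, with a coefficient of variation of 32.1%, against 5.76% for Areg in the same libraries. Without ICOS KO replicate 1 the log2 fold changes were -0.63 for Adam17 and -0.66 for Rhbdf2, and without replicate 3 they were -0.30 and -0.19.

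Adam10, which encodes the second protease, differed least. Its WT values were 57.2, 63.2 and 58.9 CPM and its ICOS KO values 61.7, 46.5 and 50.2 CPM, a log2 fold change of -0.18 ± 0.13 (SE). It lies on chromosome 9 at 70678997 to 70780229 on the plus strand. For all 3 genes the lower ICOS KO libraries, replicates 2 and 3, were those with the higher mitochondrial share, and the part of RNA quality in these values was not tested. All 3 have long transcripts (3855 to 4593 bases), and with the length and GC trend removed the log2 fold changes were -0.07 for Adam10, -0.29 for Adam17 and -0.23 for Rhbdf2.

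Other genes of shedding and maturation gave no call. Of 26 genes listed, which include further ADAM proteases, TIMP inhibitors, tetraspanins that guide ADAM10, and proprotein convertases, 20 were in the table and all 20 were tested. None passed an adjusted p of 0.05 in edgeR or voom, DESeq2 called 1 (Adam19), and 2 had an unadjusted p under 0.05 in edgeR. Among all tested genes edgeR called 3.29% in either direction. The median log2 fold change was -0.10, against -0.0035 over all tested genes. Furin, a convertase that removes the inhibitory propeptide of ADAM proteases, was the most abundant at 714 ± 120 and 692 ± 128 CPM (edgeR adjusted p = 0.893). Adam8 stood at 529 ± 25.2 and 516 ± 65.9 CPM (edgeR adjusted p = 0.868). Adam19 stood at 98.3 ± 7.13 and 128 ± 7.84 CPM (edgeR adjusted p = 0.0728), but passed the test, higher in ICOS KO, with the length and GC trend removed (adjusted p = 0.00638).

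Errfi1, the gene of the EGF receptor inhibitor MIG6 and the other member that was higher in ICOS KO, was sparse. It measured 10.9, 7.41 and 10.8 CPM in WT and 18.7, 19.3 and 20.6 CPM in ICOS KO, from 141 to 289 estimated counts per library. The ICOS KO libraries were within 2 CPM of each other and all above WT, where replicate 2 was the lowest. The means were 9.71 ± 1.99 and 19.5 ± 1.003 CPM. This gave a log2 fold change of 1.01 ± 0.19 (SE), or 0.85 without WT replicate 2. With the length and GC trend removed it was 1.14, so that the values of Areg and Errfi1 came closer to each other. Errfi1 lies on chromosome 4 at 150853919 to 150868892 on the plus strand. Its annotation overlaps 1700045H11Rik on the other strand, though not in exons.

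Other brakes on the same receptor pathway gave 1 edgeR call, a lower one. Of 24 feedback genes listed, 19 were tested, none was called higher and 1 was called lower, beside 1.29% higher and 2.01% lower over all tested genes. The median log2 fold change was -0.33, with 14 of 19 values negative and 5 positive, and -0.16 with the length and GC trend removed. The gene called was Spry1, a Sprouty protein that restrains RAS and ERK signalling, which fell from 21.0 ± 6 to 9.50 ± 0.213 CPM (edgeR adjusted p = 0.0119), or decreased by 1.15 ± 0.21 (SE) on the log2 scale. Dropping either WT replicate 1 or ICOS KO replicate 3 ended that call (highest adjusted p 0.0626). Dusp6, a phosphatase that turns off ERK and the most abundant gene of this list, stood at 324 ± 10.5 and 252 ± 29.0 CPM (edgeR adjusted p = 0.0878), with every ICOS KO library below WT. DESeq2 called 2 genes of the list, Spry1 and Dusp6. Sh3kbp1, an adaptor in receptor uptake, showed levels of 148 ± 7.26 and 136 ± 18.6 CPM (edgeR adjusted p = 0.58).

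The relay from receptor to ERK was close to even: 21 genes were tested, their median log2 fold change was -0.01, and none was called higher and 1 lower. That is 4.76% lower, beside 1.29% higher and 2.01% lower over all tested genes. Map2k1, which encodes the kinase MEK1, fell from 157 ± 6.17 to 115 ± 14 CPM (edgeR adjusted p = 0.0472), a call kept only when ICOS KO replicate 1 was the library dropped and lost with any of the other 5 left out (adjusted p up to 0.206). Map2k1 was not called under upper-quartile scaling (adjusted p = 0.053) or without the count filter (adjusted p = 0.057). The values of Grb2, the adaptor that links the receptor to RAS, were 305 ± 4.83 and 332 ± 12.9 CPM (edgeR adjusted p = 0.424). Rps6ka1, which encodes the ERK target kinase RSK1, stood at 393 ± 50.8 and 391 ± 34.4 CPM (edgeR adjusted p = 0.968).

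Genes that ERK signalling is known to induce moved in both directions. Of 15 tested, 1 was called higher (6.67%) and 2 lower (13.3%), with a median log2 fold change of -0.09. The shares over all tested genes were 1.29% and 2.01%. DESeq2 called 6 of the 15 genes in either direction. With the length and GC trend removed, edgeR called 2 higher and 1 lower. Fos, an early response gene, stood at 23.3 ± 1.23 and 32.9 ± 2.11 CPM (edgeR adjusted p = 0.0689), with every ICOS KO library above WT. It passed the edgeR test, higher in ICOS KO, with that trend removed (adjusted p = 0.0279). Phlda1, an early response gene, rose from 92.3 ± 6.4 to 189 ± 20.4 CPM (edgeR adjusted p = 0.000448), a log2 fold change of 1.04 ± 0.11, and the call held whichever library was dropped. Egr1, an early growth response factor, fell from 67.3 ± 12.4 to 44.7 ± 3.04 CPM (edgeR adjusted p = 0.0472), and Myc, the growth regulator, from 90.9 ± 7.71 to 64.7 ± 5.17 CPM (edgeR adjusted p = 0.0375). With 1 library dropped, Egr1 kept its call only when this was WT replicate 3, and Myc only when it was ICOS KO replicate 1. The highest adjusted p were 0.237 and 0.21. The call of Egr1 was also lost with voom, without the count filter and with the length and GC trend removed (adjusted p up to 0.0938). Junb and Ier2, early response genes and the most abundant of the list, had levels of 528 ± 66.5 and 514 ± 12.4 CPM (edgeR adjusted p = 0.864) and of 257 ± 15.8 and 241 ± 22.4 CPM (edgeR adjusted p = 0.643).

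**Figure D2:**
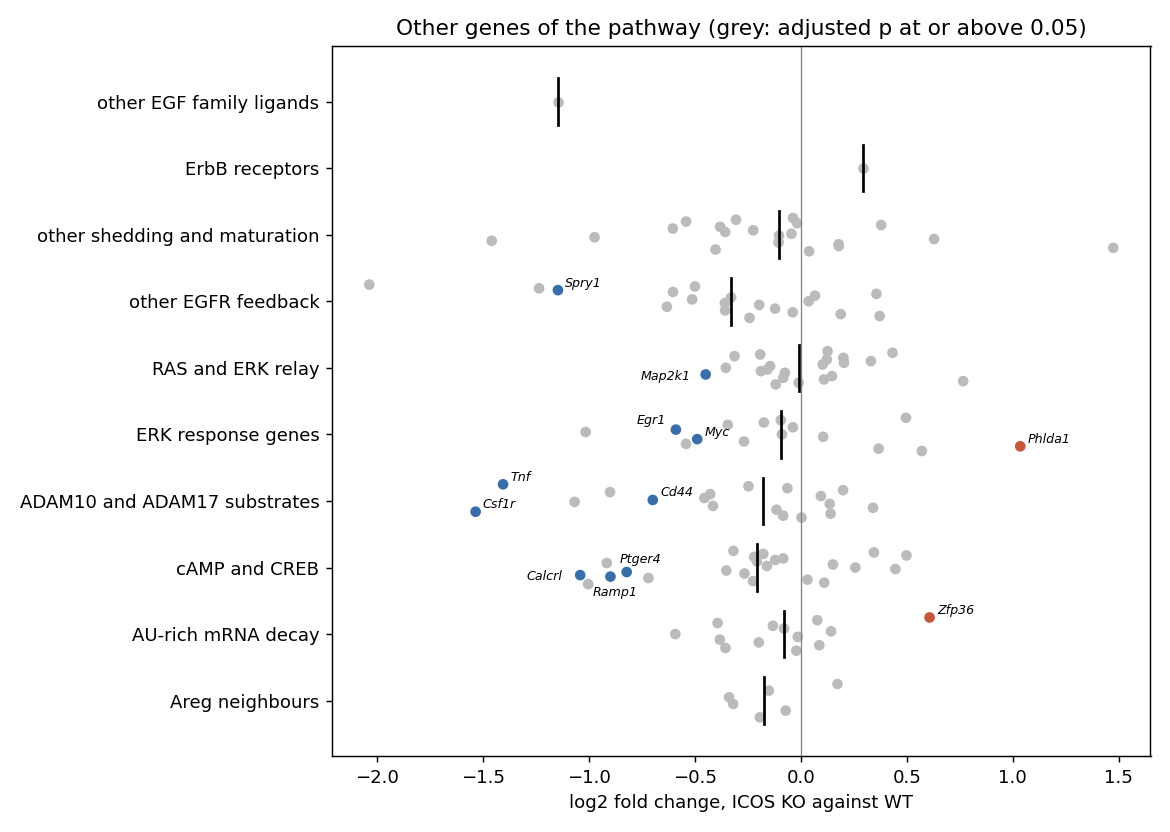
Log2 fold change (horizontal axis, ICOS KO against WT) of the tested genes in 10 lists around the 6 members, which are left out. Each point is a gene, grey where the edgeR adjusted p was 0.05 or more, red where higher and blue where lower in ICOS KO, and black bars are list medians. Phlda1 and Zfp36 are the points called higher, and the cAMP-coupled receptor genes Calcrl, Ramp1 and Ptger4 lie together among those called lower.

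The promoters of Areg and Errfi1, the members that were higher in ICOS KO, are shown because they share 2 sequence elements. The stretches are the 250 bases before a transcription start in RefSeq (GRCm38.p6, plus strand), printed 5′ to 3′. Capitals mark TGACGTCA, the full cAMP response element bound by CREB factors, and TATAAA, the TATA box that positions the start of transcription.

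Areg, chr5:91139349-91139598: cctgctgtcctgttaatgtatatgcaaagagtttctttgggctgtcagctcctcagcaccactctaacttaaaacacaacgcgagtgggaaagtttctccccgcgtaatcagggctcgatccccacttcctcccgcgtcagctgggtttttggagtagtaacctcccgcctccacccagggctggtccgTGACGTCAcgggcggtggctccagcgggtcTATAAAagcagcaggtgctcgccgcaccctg
Errfi1, chr4:150854820-150855069: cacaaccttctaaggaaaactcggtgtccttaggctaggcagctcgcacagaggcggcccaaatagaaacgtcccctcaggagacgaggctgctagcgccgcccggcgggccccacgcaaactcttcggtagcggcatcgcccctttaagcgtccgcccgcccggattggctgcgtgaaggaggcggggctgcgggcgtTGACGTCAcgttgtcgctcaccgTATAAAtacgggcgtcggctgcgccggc

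In Areg the cAMP response element ends 54 bases and the TATA box 26 bases before the start. In Errfi1 these distances were 44 and 23 bases. Errfi1 has a second RefSeq start, at 150853796, whose 250 bases hold neither motif, and counts per gene do not show which start was used. Both strands were searched; TGACGTCA reads the same on both. The element was in 508 of 32851 promoters (1.55%), TATAAA in 12.4% and both in 39 (0.119%). Promoters of Adam10 and Adam17 hold neither in this window, and that of Rhbdf2 is not shown. This pair of motifs was picked after the 2 sequences were seen. Besides Areg and Errfi1, 19 tested genes had both motifs, and edgeR called none of them; their median log2 fold change was -0.17. Of 299 other tested genes with the cAMP response element, 3 were called higher and 3 lower, or 1.003% each. Shares over all tested genes were 1.29% and 2.01%.

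Receptors that act through cAMP, and the CREB factors that bind this element, formed a list of 25 genes, of which 23 were tested. None was called higher and 3 (13%) were called lower by edgeR, against 1.29% and 2.01% over all tested genes. DESeq2 called 5 genes in either direction. Ramp1 and Calcrl encode the 2 chains of the receptor for the neuropeptide CGRP. The WT libraries held 432, 440 and 469 CPM of Ramp1, the ICOS KO libraries 206, 273 and 240.1 CPM, and it fell by 0.90 ± 0.11 on the log2 scale (SE; edgeR adjusted p = 0.000985). Calcrl fell from 29.4 ± 1.80 to 14.3 ± 3.80 CPM (edgeR adjusted p = 0.0108). Ptger4, which encodes the prostaglandin E2 receptor EP4, fell from 66.5 ± 11.6 to 37.6 ± 2.87 CPM (edgeR adjusted p = 0.0094). The call of Ramp1 held whichever library was dropped. Dropping either WT replicate 1 or ICOS KO replicate 3 ended the calls of Calcrl and Ptger4, and dropping WT replicate 2 ended that of Ptger4 (highest adjusted p 0.0611). Prkar1a, a regulatory subunit of protein kinase A and the most abundant gene of the list, stood at 818 ± 5.56 and 883 ± 29.6 CPM (edgeR adjusted p = 0.44). Creb1 itself stood at 29.1 ± 3.37 and 23.3 ± 0.0839 CPM (edgeR adjusted p = 0.238). Crem, a CREB relative that also yields repressor forms, stood at 76.7 ± 2.79 and 97.4 ± 6.74 CPM (edgeR adjusted p = 0.0986), but passed the test, higher in ICOS KO, with the length and GC trend removed (adjusted p = 0.0313).

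Factors that degrade messengers with AU-rich elements were tested because cytokine and growth factor transcripts often carry such elements. Of 13 genes 1 was called higher (7.69%) and none lower, beside 1.29% and 2.01% over all tested genes. Zfp36, which encodes the decay factor tristetraprolin, rose from 49.3 ± 2.84 to 75.1 ± 3.33 CPM (edgeR adjusted p = 0.0102), a call lost without WT replicate 1 (adjusted p = 0.0721). Elavl1, whose product HuR stabilises such messengers, had levels of 209 ± 17.8 and 191 ± 13.4 CPM (edgeR adjusted p = 0.489). Hnrnpd, which encodes the decay factor AUF1, had levels of 142 ± 27.6 and 157 ± 33.3 CPM (edgeR adjusted p = 0.675).

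Neighbours of Areg on chromosome 5 were listed from background knowledge, and the list does not hold every gene of the region. Of 13 listed, 6 were tested. None of these 6 was called by edgeR, beside 3.29% of all tested genes called in either direction. Voom called none, none had an unadjusted p under 0.05, and DESeq2, which also tested genes of lower counts, called 1. This was Ppbp, a platelet chemokine, with 10, 141 and 92 estimated counts in the WT libraries and 9, 8 and 3 in ICOS KO, where WT replicate 1 was as low as ICOS KO. The median log2 fold change was -0.17. Mthfd2l, a mitochondrial folate enzyme and the only tested neighbour with a positive value, had levels of 7.67 ± 1.36 and 8.67 ± 1.53 CPM (edgeR adjusted p = 0.721). G3bp2, a stress granule protein, and Uso1, a vesicle tether, were the most abundant, at 201 ± 6.49 and 191 ± 8.49 CPM (edgeR adjusted p = 0.684) and at 105 ± 13.3 and 92.0 ± 7.61 CPM (edgeR adjusted p = 0.378).

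Other proteins that ADAM10 or ADAM17 can cut were lower rather than higher where they were called. Of 24 substrate genes listed, 18 were tested, none was called higher and 3 (16.7%) were called lower. Beside this, 1.29% were called higher and 2.01% lower over all tested genes. The median log2 fold change was -0.18. The WT libraries held 22.9, 22.3 and 18.8 CPM of Tnf, the cytokine that ADAM17 was first known to release. The ICOS KO libraries held 7.94, 6.69 and 9.50 CPM, and Tnf fell by 1.41 ± 0.19 on the log2 scale (SE; edgeR adjusted p = 0.00169). Cd44, a hyaluronan receptor, fell from 262 ± 13.1 to 161 ± 12.8 CPM (edgeR adjusted p = 0.00218). Both calls held whichever library was dropped. Csf1r, the macrophage colony-stimulating factor receptor and itself on the macrophage marker list, fell from 11.3 ± 2.19 to 3.86 ± 1.26 CPM (edgeR adjusted p = 0.013), a call that ended when either WT replicate 1 or ICOS KO replicate 3 was dropped (highest adjusted p 0.0824). The summed macrophage, dendritic and neutrophil markers and the mast cell and basophil markers were lower in the same libraries as these 3 genes, and their part in these values was not tested. Il1r2, a decoy receptor of interleukin-1, was the most abundant of the list at 594 ± 56.9 and 682 ± 51.6 CPM (edgeR adjusted p = 0.279). Ptprc, which encodes CD45, followed at 379 ± 8.38 and 380 ± 48.4 CPM (edgeR adjusted p = 0.991).

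Over the 10 lists together, each gene counted once and the 6 members left out, 137 genes were tested, of which 2 were called higher (1.46%) and 10 lower (7.30%). Over all tested genes the shares were 1.29% and 2.01%, and 3.29% in either direction. Higher calls made up 16.7% of calls in the lists and 39% over all genes. With the length and GC trend removed these shares were 35.7%, from 5 higher and 9 lower calls, and 58%. Of the 137 log2 fold changes 92 (67.2%) were negative, against 50.4% over all tested genes. Their median was -0.13, or -0.04 with that trend removed, against -0.0035 and 0.05 over all tested genes. The lists were chosen with earlier results of these data known, so nothing is read from these shares for the pathway.

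Levels of different genes can be set side by side only per length, here as CPM per kilobase of exon. In WT, Areg was highest at 79.6 ± 8.74 CPM per kilobase, at the percentile 93.8 of tested genes. Adam17 followed at 14.7 ± 1.81, Adam10 at 12.2 ± 0.633 and Rhbdf2 at 8.66 ± 1.10 CPM per kilobase. Errfi1 at 2.71 ± 0.556 and Hbegf at 1.89 ± 0.442 CPM per kilobase were lowest, and these 2 overlapped between libraries. In ICOS KO, Areg stood at 212 ± 12.2 CPM per kilobase, at the percentile 97.6. There Adam17 (10.9 ± 2.55) and Adam10 (10.7 ± 1.62 CPM per kilobase) overlapped, as did Rhbdf2 (6.59 ± 2.12) and Errfi1 (5.45 ± 0.28 CPM per kilobase), while Hbegf was below all others at 1.21 ± 0.0755 CPM per kilobase. The gap between Adam17 and Adam10 depends on the length taken: with the longest transcript in place of all exons, WT values were 23.6 and 13.0 CPM per kilobase.

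**Figure D3:**
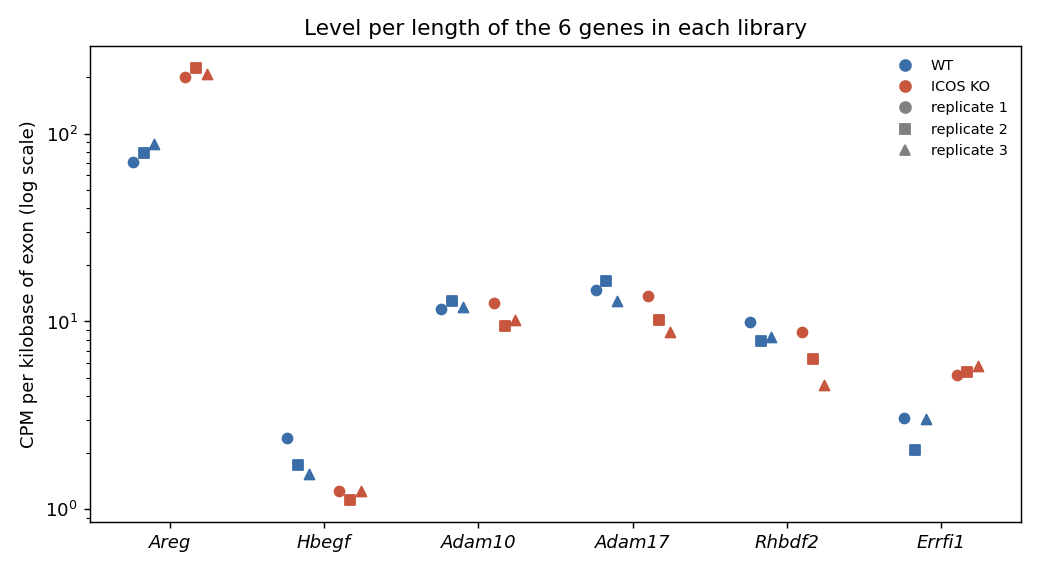
Level of the 6 genes per kilobase of exon (CPM per kilobase, log scale) in each library, WT in blue and ICOS KO in red, with a shape per replicate number. Areg lies above the other 5 genes in all 6 libraries, and Hbegf lies lowest in ICOS KO.

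The ratio of messenger levels within a library does not depend on scaling between libraries. It does keep the trend over transcript length, and its size depends on the length taken for each gene. The length class of Areg had a median log2 fold change of 0.25, that of Adam17 -0.10 and that of Adam10 -0.12. Per length, Areg exceeded Adam17 by 4.79 to 6.87 times in the WT libraries and 14.7 to 23.5 times in the ICOS KO libraries. Against Adam10 the ranges were 6.11 to 7.38 and 16.1 to 23.8 times. Areg exceeded Hbegf by 29.8 to 57.3 times in WT and 161 to 201 times in ICOS KO. For none of these 3 ratios did the ranges overlap between genotypes. By contrast the ratio of Rhbdf2 to Adam17 was 0.474 to 0.67 in WT and 0.522 to 0.641 in ICOS KO, so the proportion of these 2 messengers overlapped between genotypes. The ratio of Areg to Errfi1 also overlapped, at 23.3 to 38.2 times in WT and 36.0 to 41.8 times in ICOS KO.

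The direction of all 6 genes was the same in each of the 17 alternative settings, which changed the scaling, the filter, the tool, the block or the libraries used. The log2 fold change of Areg ranged from 1.28 to 1.49 and that of Errfi1 from 0.85 to 1.14. Hbegf ranged from -0.77 to -0.44, Adam17 from -0.63 to -0.29, Rhbdf2 from -0.66 to -0.19 and Adam10 from -0.30 to -0.07.

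**Figure D4:**
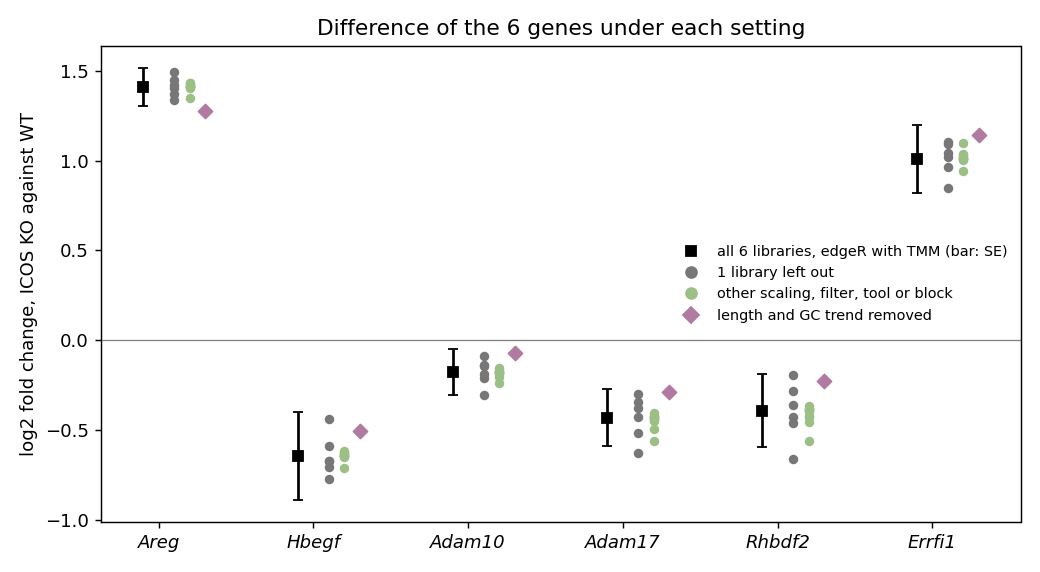
Log2 fold change (vertical axis, ICOS KO against WT) of the 6 genes in the fit of all 6 libraries (black, with SE), with 1 library left out (grey), under another scaling, filter, tool or block (green) and with the length and GC trend removed (purple). No value crosses 0. The values of Adam10 come nearest to it, at -0.07.

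The genes whose pattern over the 6 libraries was nearest to Areg were sought among 9290 tested genes with a mean of at least 5 CPM, by the root mean square difference of centred log2 CPM. Nearness to Areg selects for a like difference between genotypes, so none is tested here. The nearest were Sgip1 (difference 0.13 on the log2 scale), Klrg1 (0.14), Dipk1c (0.14), St3gal6 (0.15) and Afp (0.15). Klrg1, whose values stand above among the ILC2 markers, is an inhibitory receptor of mature ILC2s. St3gal6, a sialyltransferase, stood at 22.0 ± 2.81 and 60.1 ± 8.85 CPM. Sgip1, an endocytosis protein, stood at 4.42 ± 0.486 and 12.3 ± 1.90 CPM. Nearest to Errfi1 were Pik3ap1 (0.13), Tigit (0.16), Gimap4 (0.17), Il24 (0.17) and Mpp7 (0.17). Pik3ap1, an adaptor of PI3K, stood at 27.4 ± 5.20 and 56.6 ± 6.46 CPM, and Tigit, an inhibitory receptor, at 16.4 ± 2.48 and 29.6 ± 4.86 CPM. None of these 10 genes is on a pathway list.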

How the data were processed

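RNA of 6 libraries was measured after cDNA synthesis with a SMARTer ultra-low-input kit, per the labels' protocols. The authors deposited 1 table of estimated counts for 18122 genes, 39.4% of its values not whole. Partek 10.0, STAR 2.7.8, DESeq2 and build mm10 are listed per the submitters' processing notes; how reads were counted, and with which annotation or strand setting, is not given in the sources used here. All 3 libraries of each genotype were used, although the series' design mentions duplicates. Sample titles gave the groups.

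Counts were rounded, filtered with filterByExpr, TMM-normalised and compared between genotypes by quasi-likelihood in edgeR 4.0.16 (R 4.3.3), with genotype as the only term. Benjamini-Hochberg adjustment ran over 13691 genes, with a threshold of 0.05. SE follows from the F statistic. The fit was tested on simulated data with 100 genes changed at each size. It recovered 72% of 2-fold and 90% of 4-fold changes and called 8 unchanged genes, so a gene not called may still differ. A floor of 3 counts was 0.157 to 0.225 CPM in a library and covers counting error only, since amplified reads without identifiers are not separate molecules. Exon-union lengths and positions came from GENCODE M21, by symbol or RefSeq synonym, for 17879 genes. The length and GC trend was removed as per-library spline offsets (values known for 99% of tested genes). Promoters came from RefSeq and matched 4 of the 5 genes looked up; Hbegf was not looked up.

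Members and gene lists were chosen with earlier results of these data known. Named were the members, Icos, in each list the genes called (at most 6) and the 2 most abundant, and the 5 genes nearest to Areg and to Errfi1 (predicted Gm and Rik models left out); marker lists other than that of ILC2s are given as sums and counts. Adam19, Btc, Creb1, Crem, Egfr, Ereg, Fos, Mthfd2l and Ppbp were named after their values were seen. Alternatives were RLE, upper-quartile and total scaling, DESeq2 1.42.0, limma 3.58.1 voom with and without quality weights, no filter or one of 5 CPM in 3 libraries, a block by replicate number, dropping each library, dropping mitochondrial and haemoglobin genes, and the length and GC trend.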

Additional observations from a re-analysis of the deposited data

How the results depend on the processing

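The 6 members kept their direction under all 17 alternatives; with the length and GC trend removed, the log2 fold change of Areg was 1.28. The number of genes called over the whole table was less stable. DESeq2 called 909 genes (402 higher, 507 lower), voom with quality weights 906 (399 and 507), and removal of the length and GC trend gave 358 higher and 259 lower, against 176 and 275 in the edgeR fit. Scaling by library totals gave 127 higher and 324 lower. Dropping 1 library gave 193 (without WT replicate 1) to 1090 calls (without ICOS KO replicate 1), with 69 to 491 higher and 123 to 599 lower. On the pathway lists, the 2 higher and 10 lower calls became 5 and 16 with DESeq2, 4 and 15 with quality weights, 5 and 9 with the length and GC trend removed, 1 to 5 and 3 to 17 with 1 library dropped. The cause of these shifts was not tested.

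Replicate numbers gave little sign of pairing: deviations of libraries with the same number correlated at 0.087, 0.078 and 0.064, though each library correlated best with its own number, a hint from the data and not the design. A fit with the replicate number as a block called 784 genes, 374 higher and 410 lower, against 451 without it.

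Depth limits Hbegf most, at 72 to 220 estimated counts per library, and with 3 libraries a genotype no fold change of a single gene is known better than its SE.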
